A study of Mus musculus with 12 samples.

Results

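The keratins are the intermediate filament proteins of epithelial cells, and their genes were followed here in 12 mouse 4T1 tumors. Members were all rows of the expression table whose symbol is Krt followed by a number and at most 1 small letter, which gave 54 of 55401 genes. Of these, 28 encode type I (acidic) and 26 type II (basic) keratins. A filter on low values, a level of at least 1 TPM in at least 3 of the 12 tumors, was passed by 10 keratins (15504 genes in all), and these were tested. TPM is a level per transcript length that sums to the same total in every library, computed here as the share of the deposited FPKM value in the sum of its library.

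4T1 is a carcinoma line from the mammary gland of a Balb/c mouse, and the tumors grew in the breast of Balb/c mice that have all their immune cells. The 4 groups, of 3 tumors each and 1 library per tumor, differed in the protein injected. They received control IgG, IL-10-Fc (interleukin-10 joined to an antibody Fc part), aCSF1R (an antibody that blocks CSF1R, a receptor that macrophages need to survive) or BF10 (the fusion of that antibody with interleukin-10). According to the labels, treatment began at a tumor volume of 100 mm3 and comprised 6 doses, whereas the series text states fewer, and which holds for these tumors is uncertain. All tumors came from the same line, the study's mice were 6 to 8 weeks old by its methods, their sex is not given for this experiment, and host skin, muscle or mammary tissue taken along with a tumor would be part of its RNA. The replicates are named by the numbers in the sample titles: 4, 5 and 7 for control, 2, 4 and 7 for IL-10-Fc, 4, 6 and 8 for aCSF1R and 3, 6 and 7 for BF10, and values of 3 tumors are given in that order.

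A keratin filament is built from pairs of 1 type I and 1 type II protein, so an epithelial cell makes members of both types. Simple (single-layered) epithelia and most carcinomas make Krt8 with Krt18, often joined by Krt7 and Krt19. The basal layer of skin and the myoepithelium of the mammary gland make Krt5 with Krt14, the upper layers of the epidermis Krt1 with Krt10, and wounded or stressed skin Krt6a and Krt6b with Krt16 and Krt17, while hair has keratins of its own.

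In the mouse genome (build GRCm38, GENCODE M21 annotation, in which all 54 were found) the genes lie in 2 clusters. Chromosome 11 holds 27 type I genes between positions 99232761 and 100269871. Chromosome 15 holds 27 genes between 101347444 and 102032027, of which 26 are type II. The remaining gene there is Krt18, a type I gene (plus strand, 102028180 to 102032027, 7 exons) 23697 bases away from its partner Krt8 (minus strand, 101996698 to 102004482, 9 exons). Promoter windows are printed for the 3 most abundant keratins and for the basal pair Krt14 and Krt5, whose levels differ widely. The windows, from RefSeq (GRCm38.p6), run from 250 bases before to 50 bases after the annotated start, in the direction of the gene. They lie at chr15:102004293-102004592 (minus strand), chr15:102027966-102028265 (plus strand), chr15:101412153-101412452 (plus strand), chr11:100205981-100206280 (minus strand) and chr15:101712856-101713155 (minus strand). Capitals mark matches on either strand to the TATA box letters TATAAA, the GC box letters GGGCGG or the AP-1 letters TGACTCA.
Krt8: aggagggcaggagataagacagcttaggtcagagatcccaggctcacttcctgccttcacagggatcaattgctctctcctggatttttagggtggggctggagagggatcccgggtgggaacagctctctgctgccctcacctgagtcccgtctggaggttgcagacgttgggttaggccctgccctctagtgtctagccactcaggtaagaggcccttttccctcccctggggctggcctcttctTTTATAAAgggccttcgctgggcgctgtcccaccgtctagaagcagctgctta
Krt18: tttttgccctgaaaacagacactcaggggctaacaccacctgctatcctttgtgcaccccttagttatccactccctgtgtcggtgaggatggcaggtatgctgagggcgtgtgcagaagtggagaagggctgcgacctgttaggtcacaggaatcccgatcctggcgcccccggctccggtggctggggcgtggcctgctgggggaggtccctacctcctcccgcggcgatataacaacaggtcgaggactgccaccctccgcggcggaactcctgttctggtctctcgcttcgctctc
Krt7: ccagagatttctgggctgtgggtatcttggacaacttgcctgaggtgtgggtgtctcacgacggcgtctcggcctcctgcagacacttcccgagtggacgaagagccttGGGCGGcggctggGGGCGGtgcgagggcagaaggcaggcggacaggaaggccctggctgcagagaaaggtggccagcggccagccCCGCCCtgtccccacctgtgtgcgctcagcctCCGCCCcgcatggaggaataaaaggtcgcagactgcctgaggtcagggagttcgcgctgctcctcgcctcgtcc
Krt14: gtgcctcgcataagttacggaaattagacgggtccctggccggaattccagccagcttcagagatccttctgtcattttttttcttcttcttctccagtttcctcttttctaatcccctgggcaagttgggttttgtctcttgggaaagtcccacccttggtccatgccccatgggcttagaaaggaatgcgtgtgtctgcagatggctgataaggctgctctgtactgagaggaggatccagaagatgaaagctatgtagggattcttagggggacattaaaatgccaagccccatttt
Krt5: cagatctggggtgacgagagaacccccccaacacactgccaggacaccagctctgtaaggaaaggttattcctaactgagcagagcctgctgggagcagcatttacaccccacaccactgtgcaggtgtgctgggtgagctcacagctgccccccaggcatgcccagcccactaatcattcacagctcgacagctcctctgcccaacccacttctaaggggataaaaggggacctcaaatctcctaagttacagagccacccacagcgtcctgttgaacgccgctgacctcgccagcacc

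Krt8 held TATAAA on both strands, as overlapping matches that begin 3 and 1 bases before the annotated start. Krt7 held 4 matches to GGGCGG, and the windows of Krt18, Krt14 and Krt5 held none of these letters. The Krt14 and Krt7 windows lie inside the genes as GENCODE M21 places them (chr11:100203162-100207548, minus strand, and chr15:101411043-101430313, plus strand). For these 2 genes the outer GENCODE start is therefore not in the window, and the letters near it were not read. Over the 37 windows of the 36 keratins in the RefSeq table, 19 (51.4%) held TATAAA, 2 (5.41%) GGGCGG and 1 (2.703%) TGACTCA. Among all 32851 windows of that length the shares were 13.6%, 35.7% and 5.20%. A match is a description of the letters and not a site, and a window without one says only that these letters are not in it.

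Before any comparison, the libraries fell into 2 sets that cut across the treatments. In 5 libraries (control 4 and 7, IL-10-Fc 7, aCSF1R 8 and BF10 6) the deposited FPKM values summed to 782919 to 921581, and in the other 7 to 609695 to 648413. These are called higher-sum and lower-sum libraries. With treatment group in the model, limma called 54.0% of all tested genes lower and 5.23% higher in the higher-sum libraries in TPM. These shares are partly set by the scale, since the sets were made from the same sum that TPM divides by. On FPKM without rescaling the shares were 36.3% lower and 13.1% higher, and after scaling by the median of ratios 19.8% and 24.0%. Counts and medians of keratins between the sets are therefore given on all 3 scales, and set differences of the other gene lists in TPM only. Treatment differences of the tested keratins are also given with library set as a term of the model. Control had 1 lower-sum library and the other groups 2 each, and the cause of the sets was not tested. Relative depth, read from the smallest values of 731 sparsely covered genes, was 0.918 to 1.07 of the median library. Only values close to the smallest value of a gene were compared, which holds these estimates near 1. They therefore cannot show whether depth differed between the sets. Per library, 23012 to 25299 genes had a value above 0.

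The tumors carried the RNA of an epithelial tumor. All 10 markers of carcinoma or other epithelium that are not keratins passed the filter. Of them 0 were called in any contrast between treatments, beside at most 0.735% of all tested genes. Epcam, an epithelial adhesion protein, was between 31.9 and 89.5 TPM in the 12 libraries. Cdh1 (E-cadherin) was between 39.2 and 77.0 TPM in the lower-sum libraries but between 6.84 and 10.2 TPM in the higher-sum libraries. Of the 7 mammary secretory markers 2 passed the filter. Csn3 (casein kappa) was between 2.39 and 20.9 TPM, and Glycam1, a mucin of milk and of lymph node vessels, was 249.5 TPM in control 7 and at most 3.60 TPM in the other tumors. Their list summed to 271 TPM in control 7 and to 2.76 to 17.1 TPM elsewhere, and casein beta (Csn2) did not exceed 0.177 TPM. The part of mammary tissue in the keratin values was not tested.

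Most keratin RNA of these tumors came from the genes of simple epithelia. Keratins together made up 0.0719% to 0.251% of all TPM (719 to 2513 TPM, median 2117). Krt8 and Krt18 held 76.1% to 88.3% of it, and with Krt7 and Krt19 94.95% to 98.7%. Only 6 keratins (Krt18, Krt8, Krt7, Krt19, Krt14 and Krt10) reached 1 TPM in all 12 libraries, 16 reached it in at least 1 library, and 13 of the 54 were listed at 0 everywhere. Summed type I and type II keratins were nearly balanced, with a type I to type II ratio between 0.837 and 1.26.

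**Figure D1:**
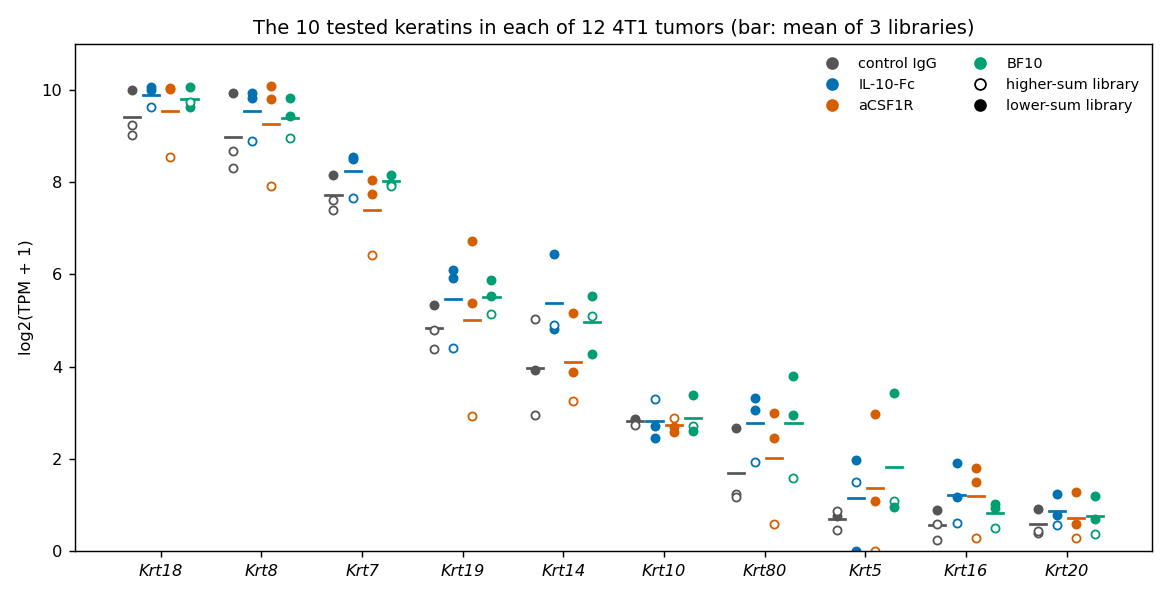
Level of each of the 10 tested keratins in each of the 12 tumors, as log2(TPM + 1) on the vertical axis, ordered by mean TPM. Colors stand for the 4 groups, open circles for higher-sum libraries, filled circles for lower-sum libraries and bars for the mean of 3 libraries. Krt18 and Krt8 stand at the top in every library, and all open circles lie below all filled circles for Krt8, Krt16, Krt19, Krt20 and Krt80.

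Krt18, the type I keratin of simple epithelia, was the most abundant keratin, with a mean of 853 TPM over all tumors. It was at 521, 1026 and 607 TPM in the control tumors, 1027, 1072 and 794 TPM after IL-10-Fc, 1041, 1059.6 and 372 TPM after aCSF1R, and 791, 854 and 1079 TPM after BF10. The lowest tumor, aCSF1R 8, lay beside 2 aCSF1R tumors among the highest, and all 4 groups overlapped. The group means were 718 ± 270.0 TPM for control, 964 ± 149 for IL-10-Fc, 824 ± 392 for aCSF1R and 908 ± 152 for BF10 (SD, n = 3 each). On the log2(TPM + 1) scale BF10 minus control was 0.39 (95% interval -0.49 to 1.27, adjusted p = 0.788 by limma), less than the spread between tumors. In the lower-sum libraries the control tumor had 1026 TPM, beside means of 1049 TPM for IL-10-Fc, 1050.4 TPM for aCSF1R and 935 TPM for BF10 (2 tumors each).

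Krt8, the type II partner of Krt18, was at 316, 986 and 411 TPM in control, 976, 901 and 473 TPM after IL-10-Fc, 897, 1090.4 and 239 TPM after aCSF1R, and 690.1, 496 and 905 TPM after BF10. In each group the higher-sum libraries were the low ones, and the groups overlapped. The means were 571 ± 362, 784 ± 271, 742 ± 446 and 697 ± 205 TPM (SD, n = 3 each) in the same order. BF10 minus control was 0.42 on the log2 scale (95% interval -0.88 to 1.73), and it was -0.005 once library set was a term of the model. Within the lower-sum libraries the only control tumor had 986 TPM, beside means of 939 TPM for IL-10-Fc, 994 TPM for aCSF1R and 798 TPM for BF10 (2 tumors each). In the higher-sum libraries the 2 control tumors had a mean of 364 TPM, and the lone tumors of the other groups had 473, 239 and 496 TPM. Of the 75-base runs in Krt8, 22.0% also occur in the pseudogene Krt8-ps, and how the counting divided such reads is not given in the sources used here.

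Krt7, a type II keratin of ducts and glands, had 194, 286 and 167 TPM in control, 363, 374 and 200.02 TPM after IL-10-Fc, 264, 214 and 84.6 TPM after aCSF1R and 249.8, 241 and 287 TPM after BF10. The 3 BF10 tumors were close together (SD 24.2 TPM) and the aCSF1R tumors were not (SD 92.6 TPM). Krt7 had the smallest unadjusted p of the keratins in BF10 against aCSF1R, where the difference was 0.61 on the log2 scale (95% interval -0.29 to 1.52, adjusted p = 1 by limma), and the groups overlapped.

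Krt19, the small type I keratin of ductal epithelium, varied more, 15.6-fold from the lowest to the highest tumor against 2.90-fold for Krt18. Its values were 26.6, 39.6 and 19.9 TPM in control, 67.1, 59.9 and 20.2 TPM after IL-10-Fc, 104, 40.7 and 6.66 TPM after aCSF1R and 58.2, 34.3 and 45.2 TPM after BF10. In TPM every higher-sum library (6.66 to 34.3 TPM) was below every lower-sum library (39.6 to 104 TPM), but on FPKM without rescaling the sets overlapped.

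Krt80, a type II keratin of many epithelia, showed a split at a lower level. It had 1.36, 5.35 and 1.26 TPM in control, 7.32, 8.99 and 2.84 TPM after IL-10-Fc, 7.01, 4.43 and 0.499 TPM after aCSF1R and 12.8, 1.98 and 6.72 TPM after BF10. The higher-sum libraries ended at 2.84 TPM and the lower-sum libraries began at 4.43 TPM, and the sets did not overlap on the other 2 scales either. Krt20, an intestinal and urothelial keratin, was the least abundant keratin tested, with group means of 0.510 ± 0.315 TPM in control, 0.854 ± 0.447 after IL-10-Fc, 0.710 ± 0.629 after aCSF1R and 0.731 ± 0.506 after BF10 (SD, n = 3 each). Krt23, the last simple keratin, stayed between 0.0217 and 0.602 TPM and was not tested.

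The basal keratins were present at lower levels, and the tumor highest for 1 partner was not the highest for the other. Krt14, the type I partner, was at 31.7, 14.2 and 6.76 TPM in control, 27.0, 86.4 and 28.9 TPM after IL-10-Fc, 34.8, 13.7 and 8.59 TPM after aCSF1R and 45.1, 33.0 and 18.4 TPM after BF10. Krt5, its type II partner, was at 0.370, 0.683 and 0.832 TPM in control, 2.94, 0 and 1.83 TPM after IL-10-Fc, 6.86, 1.13 and 0 TPM after aCSF1R and 9.76, 1.12 and 0.932 TPM after BF10. The tumor with the most Krt14, IL-10-Fc 4, was listed at 0 for Krt5, and in the 10 tumors with a Krt5 value Krt14 was 4.62 to 85.6 times Krt5. Trp63, the p63 factor of basal epithelium, stayed between 0.121 and 0.902 TPM in all 12 tumors.

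Krt14 was the keratin with the smallest unadjusted p in 2 of the comparisons. IL-10-Fc minus control was 1.41 on the log2 scale (SE 0.66, 95% interval -0.05 to 2.88, unadjusted p = 0.057 and adjusted p = 0.738 by limma), with means of 47.4 ± 33.8 against 17.6 ± 12.8 TPM (SD, n = 3 each). It did not pass the test, and the control tumor with 31.7 TPM lay above 2 of the 3 IL-10-Fc tumors. BF10 minus control was 0.99 (95% interval -0.47 to 2.46, adjusted p = 0.788 by limma). With library set as a term these differences were 1.27 and 0.85. Smooth muscle and myoepithelial markers stood beside these values. Acta2 (smooth muscle actin) was at 83.0, 114 and 18.2 TPM in control, 151, 287 and 163 TPM after IL-10-Fc and 442, 64.6 and 91.1 TPM after BF10, while the oxytocin receptor Oxtr, which myoepithelium carries, did not pass the filter. The 8 fibroblast markers of the list summed to 9277 TPM in BF10 3 and 5981 TPM in IL-10-Fc 4, the highest of all tumors, against 953 TPM in control 7, the lowest. The part of these cells in the Krt14 values was not tested, and in bulk RNA fewer cells of a type cannot be told apart from less RNA per cell.

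Krt5 was the only tested keratin whose groups did not overlap in any comparison of 2 groups. Its 3 BF10 tumors (0.932 to 9.76 TPM) were above the 3 control tumors (0.370 to 0.832 TPM), where 2.36% of all tested genes did not overlap with BF10 higher and 3.53% in either direction. In the other comparisons the groups overlapped for each of the 10 tested keratins. The shares of all tested genes without overlap were 6.53% in IL-10-Fc against control and 5.28% in aCSF1R against control. They were 2.13% in BF10 against IL-10-Fc and 5.91% in BF10 against aCSF1R. Untested keratins were not counted. The nearest values, 0.932 and 0.832 TPM, were close, and the highest BF10 tumor, BF10 3, stood far above the other 2. The log2 difference was 1.13 (95% interval -0.71 to 2.96) with an adjusted p of 0.788 by limma. Of the 75-base runs of Krt5, 5.18% occur in other genes (Krt6a, Krt6b, Gm5414 and Gm5478), and of those of Krt14, 5.71% in Krt16.

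The stress keratins were near the limit of the filter. Krt16 had 0.493, 0.842 and 0.177 TPM in control, 1.24, 2.73 and 0.511 TPM after IL-10-Fc, 2.45, 1.80 and 0.217 TPM after aCSF1R and 1.03, 0.410 and 0.916 TPM after BF10. It had the smallest unadjusted p of the keratins in aCSF1R against control (log2 difference 0.62, 95% interval -0.32 to 1.56, adjusted p = 0.893 by limma), in BF10 against IL-10-Fc (-0.40, -1.34 to 0.54, adjusted p = 1) and in the non-additive contrast (-1.02, -2.35 to 0.31, adjusted p = 0.9745). These were within the spread between tumors, and 28.9% of the 75-base runs of Krt16 are shared with Krt14 or Gm11597. Krt17, which did not pass the filter, had 0.393, 0.254 and 0.421 TPM in control, 0.738, 0.972 and 0.907 TPM after IL-10-Fc, 1.09, 0.508 and 0.0760 TPM after aCSF1R and 2.58, 0.832 and 0.155 TPM after BF10. The IL-10-Fc and control values of Krt17 did not overlap, but at under 1 TPM in these 6 tumors the difference was not tested. Of all tested genes 6.53% did not overlap in that comparison. Krt6a did not exceed 0.641 TPM.

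Krt10, a type I keratin of the upper epidermis, was the steadiest member, between 4.503 and 9.42 TPM in all 12 tumors. It had 6.25, 6.21 and 5.60 TPM in control, 5.50, 4.503 and 8.84 TPM after IL-10-Fc, 4.97, 5.46 and 6.43 TPM after aCSF1R and 9.42, 5.51 and 5.05 TPM after BF10. Its partner Krt1 was listed at 0 in 9 tumors, so in most of them Krt10 was measured with its partner listed at 0. The 95% interval of Krt10 for BF10 minus control, -0.60 to 0.77 on the log2 scale, was the narrowest of the 10 keratins.

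Several other epidermal keratins were highest in BF10 3, and some of these also stood out in IL-10-Fc 7. In BF10 3, 15 keratins reached 1 TPM against 6 to 11 in the other tumors, and 14 of the 31 untested keratins with any value were highest there. The share of all untested genes highest in BF10 3 was not counted. Some of the 14 were near 0, such as Krt28 with 0.0313 TPM there and 0.0224 TPM in control 4. Krt15, a basal keratin of the hair follicle, was 4.11 TPM in BF10 3 and at most 0.558 TPM elsewhere. Krt77 was 1.92 TPM in BF10 3, 1.05 TPM in IL-10-Fc 7 and listed at 0 in the other 10 tumors. Krt1 was 1.13 TPM in BF10 3, 0.473 TPM in IL-10-Fc 7 and at most 0.0157 TPM in the rest. Krt79, a keratin of the hair canal and sebaceous duct, was 2.16 and 0.524 TPM in these 2 tumors and at most 0.251 TPM elsewhere. Others did not follow them. Krt13 was above 0 in all 12 tumors, highest in aCSF1R 6 (0.754 TPM) and lowest in IL-10-Fc 7 (0.0255 TPM), and Krt12 was highest in BF10 6 (0.0362 TPM). BF10 3 and IL-10-Fc 7 also had the highest Krt10 (9.42 and 8.84 TPM).

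**Figure D2:**
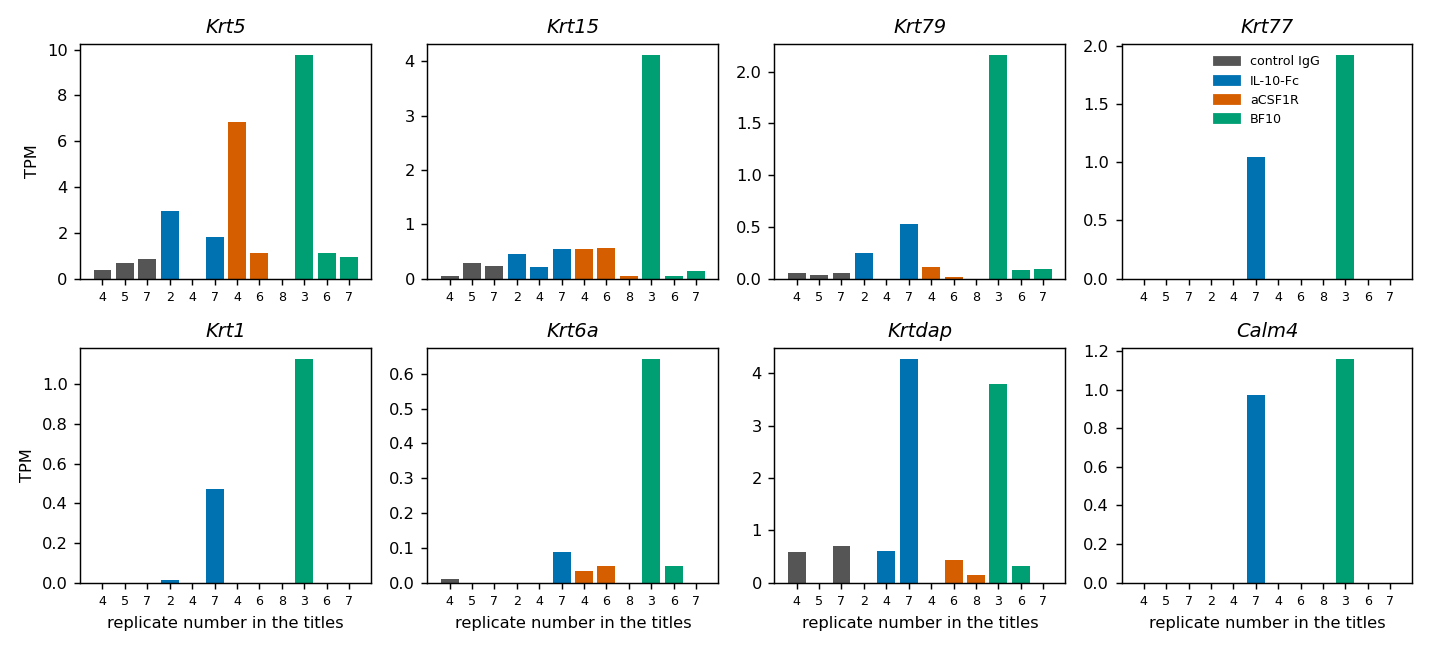
TPM of 6 keratins of stratified epithelium and of the epidermal markers Krtdap and Calm4 in each tumor, 1 bar per library, colored by group, with the replicate numbers below and a scale of its own in each panel. BF10 3 is the highest for all 6 keratins, and IL-10-Fc 7 is the only other tumor with Krt77 or Calm4. Krt13, Krt14 and Krt16, which were highest in other tumors, are not shown.

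Of the 12 skin keratinocyte genes in the table that are not keratins, 10 had a value above 0, and they did not all follow these 2 tumors. BF10 3 was the highest tumor for 7 of them, IL-10-Fc 7 for 2 and aCSF1R 4 for 1. Calm4 was 1.16 TPM in BF10 3, 0.971 TPM in IL-10-Fc 7 and listed at 0 elsewhere, Krtdap was 3.79 and 4.27 TPM in these tumors and at most 0.710 TPM elsewhere, and loricrin (Lor) was 1.298 and 0.434 TPM. Sbsn, in contrast, was highest in aCSF1R 4 (7.90 TPM), and Lgals7 was 14.8 TPM in IL-10-Fc 7 but in BF10 3 (6.80 TPM) below its median over tumors (7.20 TPM). Sprr1b and Serpinb3a were listed at 0 in all 12 tumors. Summed, the list reached 28.03 TPM in BF10 3 and 27.3 TPM in IL-10-Fc 7, against 8.45 to 18.3 TPM in the other 10 tumors. IL-10-Fc 7 also had the most RNA of skeletal muscle, with Acta1 (skeletal actin) at 19.1 TPM against at most 3.23 TPM elsewhere. The part of skin in the keratin values was not tested. Krt5 was also highest in BF10 3, but aCSF1R 4 had 6.86 TPM of Krt5 with Krt77, Krt1 and Calm4 listed at 0.

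Hair keratins were at low levels. Of 16 hair and nail keratins 10 had a value above 0 somewhere, their sum was 0.239 to 1.80 TPM per tumor, and only Krt42 reached 1 TPM, in IL-10-Fc 4 (1.00 TPM). The 9 keratins of the inner root sheath and companion layer summed to at most 0.203 TPM. Both sums were highest in BF10 3, where Krt42 was 0.845 TPM and Krt83 0.610 TPM. The 5 keratin-associated protein genes of the hair follicle list were listed at 0 in every tumor. Members of the cluster Krt81, Krt83, Krt86 and Krt87 share 11.95% to 33.5% of their 75-base runs with others, so single values among them are uncertain.

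No keratin passed the test in any of the 6 contrasts. A gene counted as called where the adjusted p was under 0.05 and the difference reached 1.5-fold. Of all 15504 tested genes limma called 0 (0%) in BF10 against control, 1 (0.00645%) in IL-10-Fc against control, 88 (0.568%) in aCSF1R against control, 0 (0%) in BF10 against IL-10-Fc, 114 (0.735%) in BF10 against aCSF1R and 45 (0.290%) in the non-additive contrast, the amount by which the effect of BF10 differs from the sum of the effects of its parts. A count of 0 among 10 keratins is near this background. The keratins at an unadjusted p below 0.05 also numbered 0 in each contrast, beside 1.51%, 1.44%, 3.46%, 0.271%, 4.26% and 2.43% of all genes in the same order of contrasts. With library set as a term 0 keratins were called as well, beside 0.00645%, 0.0258%, 2.01%, 0%, 2.82% and 1.21% of all genes.

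Point estimates lay mostly above control, as they did for all genes. In BF10 against control all 10 tested keratins had a difference above 0, with a median of 0.41 on the log2 scale beside 0.32 over all genes. For IL-10-Fc all 10 were above 0 with a median of 0.54 beside 0.35, and for aCSF1R 8 of 10 with a median of 0.15 beside 0.24. These 3 comparisons share the control tumors, 2 of which were higher-sum libraries. With library set as a term the keratin medians were 0.14, 0.24 and -0.09, and those of all genes 0.07, 0.10 and 0.01. In comparisons without control the keratin medians were -0.10 for BF10 against IL-10-Fc (all genes -0.05) and 0.37 for BF10 against aCSF1R (all genes 0.06).

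With library set as a term, 13 of 40 differences of single keratins in the 4 contrasts that involve control changed sign. BF10 minus control was then 0.15 for Krt18, -0.005 for Krt8, 0.03 for Krt7, 0.17 for Krt19 and 0.52 for Krt80, which had 1.08 without the term. It was 0.90 for Krt5, -0.02 for Krt16 and 0.14 for Krt10. For aCSF1R minus control, 6 of 10 keratins changed sign, such as Krt19 from 0.17 to -0.33 and Krt80 from 0.31 to -0.24. No sign changed for IL-10-Fc minus control, where Krt80 went from 1.08 to 0.52 and Krt19 from 0.63 to 0.13.

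**Figure D3:**
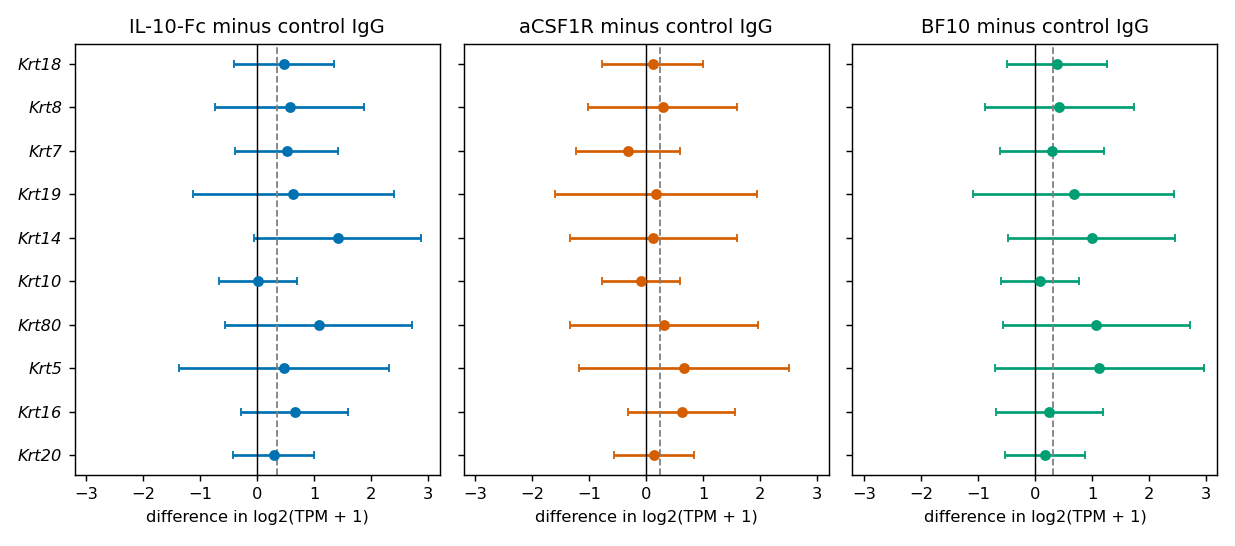
Difference of each treated group from control for the 10 tested keratins in log2(TPM + 1), with 95% intervals from limma, over 3 tumors per group. The solid line marks 0 and the dashed line the median of all tested genes (0.35, 0.24 and 0.32 from left to right), and the interval of each keratin includes 0.

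Intervals of this width leave sizable differences undetected. For Krt8 the 95% interval for BF10 minus control reached up to 1.73 and for aCSF1R minus control from -1.02 to 1.60 on the log2 scale, so a test that missed its threshold does not show that the groups were alike. Summed keratin levels were 1563 ± 699.5 TPM in control, 2177 ± 556 TPM after IL-10-Fc, 1841 ± 972 TPM after aCSF1R and 1968 ± 349 TPM after BF10 (SD, n = 3 each). The sums of single tumors were 1099 to 2367.5 TPM, 1535 to 2513 TPM, 719 to 2435 TPM and 1669.7 to 2351 TPM in that order, so the groups overlapped.

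Between the library sets, keratin levels differed by an amount that depended on the scale. In TPM the higher-sum libraries summed to 719 to 1669.7 and the lower-sum libraries to 1884 to 2513, without overlap, but TPM is divided by the sum that defines the sets. On FPKM without rescaling the sums were 663 to 1385 and 1204 to 1629.7, and after scaling by the median of ratios 1360.1 to 2116 and 1450.2 to 2031, so that the sets overlapped. In TPM limma called 6 of the 10 tested keratins lower in the higher-sum libraries, beside 54.0% of all genes, and the sets did not overlap for 5 of the 10 (Krt8, Krt16, Krt19, Krt20 and Krt80), beside 48.8% of all genes. On FPKM 3 of 9 tested keratins were called lower (Krt8, Krt19 and Krt80), beside 36.3% of all genes. There the sets did not overlap for 3 (Krt8, Krt16 and Krt80), beside 34.5% of all genes lower without overlap. With the median of ratios 1 of 9 was called lower (Krt80) and 1 higher (Krt10), beside 19.8% and 24.0%. On that scale the sets did not overlap for 1 (Krt80), beside 20.0% of all genes lower without overlap. The median over the keratins was -0.76 on the log2 scale in TPM (all genes -0.68), -0.44 on FPKM (all genes -0.35) and -0.34 with the median of ratios (all genes 0.01).

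Krt80 was called lower in the higher-sum libraries on all 3 scales, with a log2 difference of -1.66 in TPM (SE 0.20), -1.24 on FPKM (SE 0.18) and -1.06 with the median of ratios (SE 0.18). Krt8 differed by -1.29 in TPM (SE 0.19) and -0.85 on FPKM (SE 0.17), both called. With the median of ratios it differed by -0.41 (SE 0.14, adjusted p = 0.0252 by limma), which fell short of 1.5-fold and was not called. Its partner Krt18 differed by -0.72 (SE 0.18), -0.28 (SE 0.16) and 0.16 (SE 0.14) in the same order and was called in TPM only. Krt10 lay on the other side, with 0.16 (SE 0.19), 0.51 (SE 0.17) and 0.92 (SE 0.18), and was called higher only with the median of ratios. On FPKM its adjusted p was 0.0205 by limma, but the difference fell short of 1.5-fold.

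Partners of 1 filament were at different proportions in the 2 sets. The Krt18 to Krt8 ratio was 0.972 to 1.19 in the 7 lower-sum libraries (mean 1.11, SD 0.0859) and 1.47 to 1.72 in the 5 higher-sum libraries (mean 1.62, SD 0.0997), without overlap. A ratio within a library does not depend on how the library is scaled. However, the longest transcripts of the 2 genes differ in length (1437 nt for Krt18, 1958 nt for Krt8), and the sets were made from length-scaled values. The part of transcript length in this split was not tested, and ratios of other genes were not counted. By treatment it was 1.39 ± 0.314 in control, 1.31 ± 0.328 after IL-10-Fc, 1.23 ± 0.298 after aCSF1R and 1.353 ± 0.320 after BF10 (SD, n = 3 each), so the groups overlapped. All type I against all type II keratins gave 0.837 to 1.01 in the lower-sum and 1.10 to 1.26 in the higher-sum libraries. Krt8 and Krt18 held 76.1% to 88.3% of keratin TPM, so this ratio largely repeats the first. Krt7 to Krt8, both type II, was 0.196 to 0.416 in the lower-sum and 0.353 to 0.614 in the higher-sum libraries, with overlap.

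**Figure D4:**
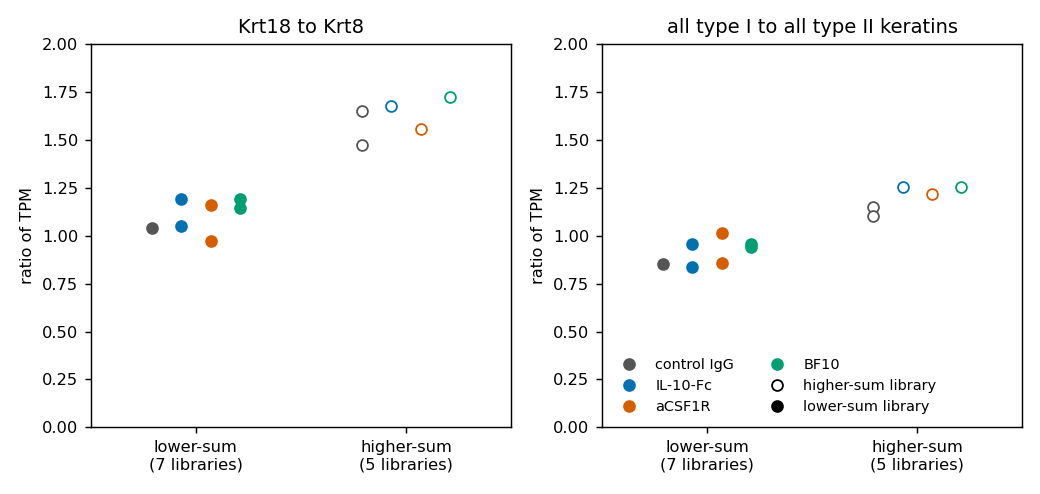
Ratio of TPM in each library, of Krt18 to Krt8 on the left and of all type I to all type II keratins on the right, by library set. Colors stand for the groups. In both panels the 5 higher-sum libraries lie above the 7 lower-sum libraries, with members of every group in both sets.

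Genes that work with keratins were not called between treatments either. The 9 proteins that tie keratins to cell junctions, such as desmoplakin (Dsp) and plakoglobin (Jup), all passed the filter. Of these 0 of 9 were called in any contrast, beside at most 0.735% of all tested genes. The most abundant was plectin (Plec), which links filaments to each other and to hemidesmosomes, at 26.8, 91.8 and 37.0 TPM in control and 68.1, 57.5 and 83.7 TPM after BF10. The smallest unadjusted p was that of the desmosomal protein Pkp2 in IL-10-Fc against control (log2 difference 0.86, SE 0.43, adjusted p = 0.738 by limma). In TPM all 9 were called lower in the higher-sum libraries, beside 54.0% of all genes, with a median of -0.94 on the log2 scale beside -0.68 over all genes.

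Of the 7 other intermediate filament genes 6 passed the filter and 0 were called between treatments, beside at most 0.735% of all tested genes. Vimentin (Vim), the filament of mesenchymal cells, exceeded all keratins together in every tumor, and summed keratins were 0.388 to 0.816 of Vim. Nestin (Nes) had the smallest unadjusted p (IL-10-Fc against control, log2 difference 1.41, SE 0.90, adjusted p = 0.738 by limma). Epithelial regulators passed in 6 of 11 cases and mesenchymal regulators in 6 of 6, again with 0 called in any contrast beside that share. Among the former Klf5, a zinc finger factor, was the most abundant (6.25 to 32.3 TPM), and Klf4 had the smallest unadjusted p (IL-10-Fc against control, 0.86, SE 0.54, adjusted p = 0.738). Among the latter Twist1 was the most abundant (18.1 to 53.1 TPM), and Twist2 had the smallest unadjusted p (IL-10-Fc against control, 1.01, SE 0.44, adjusted p = 0.738).

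Macrophage RNA was set beside the keratins because aCSF1R and BF10 bind a receptor of macrophages. Of 8 macrophage markers limma called 6 lower in aCSF1R than in control, beside 88 (0.568%) of all 15504 tested genes called in either direction. The 8 markers summed to 81.1 to 251 TPM in the aCSF1R tumors and to 1460.0 to 2249 TPM in the other 9 tumors. In the same aCSF1R tumors the keratins summed to 2368, 2435 and 719 TPM, a range that took in the lowest tumor of all and 2 of the higher ones. The lowest, aCSF1R 8, was also the library with the highest FPKM sum and the fewest genes above 0 (23012).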

How the data were processed

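RNA of 12 orthotopic 4T1 tumors, 3 per group, was extracted by the authors with TRIzol, made into stranded libraries of polyadenylated RNA, and sequenced. The submitters' processing notes name STAR 2.7.5a, RSEM 1.3.3 and DESeq2 1.28.0, with builds mm10 and GRCm38. The authors deposited FPKM values (fragments per length of transcript and per depth of library, to 2 decimals) for 55401 genes, and 4 tables of their own DESeq2 comparisons (fold changes, p-values), which were not used. FPKM are no counts, so depth is not known and no count model was run.

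Each FPKM was divided by its library sum (TPM). Genes with at least 1 TPM in at least 3 of 12 libraries were tested with limma 3.58.1 in R 4.3.3 (eBayes with trend) on log2(TPM + 1), a scale that understates changes of low genes, with 1 mean per group and 8 residual degrees of freedom. A gene was called at a Benjamini-Hochberg adjusted p below 0.05 over all genes tested and a change of at least 1.5-fold. The script was tested on simulated data. Levels, ratios and figures used Python 3.11.15 (pandas 2.3.3). Labels do not say whether tumors came from separate experiments, so p-values measure the spread between these 12 tumors.

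Named with every value were the 10 keratins with the highest mean TPM and, in each contrast, the keratin with the smallest unadjusted p. From the 4 lists of partners (junction proteins, other intermediate filaments, epithelial and mesenchymal regulators) the most abundant gene, any called gene and the gene with the smallest unadjusted p over 5 comparisons were named. The keratins, the lists, the library sets and this rule were chosen with earlier results of these data known. Cell type markers (Epcam, Cdh1, Csn2, Csn3, Glycam1, Oxtr, Acta2, Acta1 and those of skin) and Trp63 were chosen after their values were seen. So were the keratins outside the rule (Krt6a, Krt12, Krt13, Krt23 and Krt83). Shared 75-base runs were counted in GENCODE M21 transcripts. Alternatives were a pseudocount of 0.1, FPKM without rescaling, scaling by the median of ratios, 2 other filters, fits on the 2 groups compared, a replicate block, library set as a term, no minimum fold and leaving out each library. The fit on the 7 lower-sum libraries and the set comparison on other scales were chosen after seeing the data.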

Additional observations from a re-analysis of the deposited data

How the results depend on the processing

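In every alternative, 0 keratins were called in each of the 6 contrasts, also without a filter, where 41 keratins entered. Followed under every alternative were Krt8, Krt18, Krt14 and the keratin with the smallest unadjusted p of each contrast, and among these only values of Krt8, Krt18 and Krt14 turned direction. On the log2 scale, FPKM without rescaling gave -0.0484 for Krt14 and -0.0699 for Krt18 in aCSF1R against control, and 0.00931 for Krt18 in the non-additive contrast. Scaling by the median of ratios gave -0.10, -0.12 and 0.10 for the same 3, and -0.00463 for Krt8 in BF10 against aCSF1R. It also took the median of all genes from 0.32 to 0.01 in BF10 against control, from 0.35 to -0.005 for IL-10-Fc and from 0.24 to 0.03 for aCSF1R. Library set as a term gave -0.00483 for Krt8 in BF10 against control, -0.0156, -0.13 and -0.14 for Krt14, Krt18 and Krt8 in aCSF1R against control, and 0.0390 for Krt18 in the non-additive contrast. The fit on only the 7 lower-sum libraries, where control was 1 tumor assumed to vary like the other groups, gave -0.15 for Krt18 and -0.32 for Krt8 in BF10 against control, -0.0717 for Krt8 in IL-10-Fc against control, and -0.19 and -0.32 for Krt18 and Krt8 in BF10 against aCSF1R. The cause of these turns was not tested.

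Leaving out each library in turn gave these ranges. In aCSF1R against control they were -0.40 to 0.66 for Krt14, -0.14 to 0.61 for Krt18 and -0.12 to 0.97 for Krt8. In BF10 against IL-10-Fc they were -0.71 to 0.11, -0.22 to 0.00632 and -0.47 to 0.0816, in the same order. In BF10 against aCSF1R they were -0.22 to 0.53 for Krt18 and -0.55 to 0.55 for Krt8, and in the non-additive contrast -0.70 to 0.0548 for Krt18.

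With the replicate block, which has 2 residual degrees of freedom, 0 keratins were called, and the values were 0.14 and 0.18 for Krt18 and Krt8 in BF10 against IL-10-Fc and -0.12 and -0.57 in BF10 against aCSF1R. Whether the numbers pair the tumors could not be told. Residuals of 7 pairs with the same number correlated between -0.66 and 0.42 (median -0.39), and 2 of 7 were over 0.1. Those 2 pairs (aCSF1R 4 with IL-10-Fc 4, control 7 with IL-10-Fc 7) lay within a library set. They correlated at 0.42 and 0.35. Pairs with different numbers within a set ran from 0.083 (BF10 7 with IL-10-Fc 4) to 0.78 (BF10 6 with aCSF1R 8). The other same-number pairs joined a higher-sum with a lower-sum library, and 2 pairs within a set are too few to separate pairing from library set.

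Keratins called lower in the higher-sum libraries numbered 6 in TPM, 3 on FPKM without rescaling and 1 with the median of ratios. The shares of all genes called lower were 54.0%, 36.3% and 19.8% in the same order. The sets were made from the sum that TPM divides by, and the cause of these changes was not tested. Summed keratin levels on FPKM were 1191 for control, 1471 for IL-10-Fc, 1201 for aCSF1R and 1368 for BF10. With 3 tumors per group, most keratins under about 1 TPM were not tested, and the intervals given above hold differences that these data do not exclude.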
